A study of Danio rerio with 4 samples.

Results

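In cells from tissue labelled as adult zebrafish telencephalon, 174 of 4193 cells rich in fabp7a (4.15%, 95% exact binomial interval 3.57 to 4.80) carried transcripts of at least 2 of the genes gdf10a, dcn, wnt8b, nkx2.2a, foxb1a and foxd2. These member cells were taken from all 4 libraries by a fixed rule. A cell needed at least 300 detected genes, at most 25% of its UMIs (unique molecular identifiers, 1 per captured transcript) from mitochondrial genes, at least 0.5% of its UMIs from fabp7a, and a UMI of at least 2 of the 6 genes. The 4019 other fabp7a cells met the same terms but had UMIs of fewer than 2 of the 6 genes. Of 4857 barcodes, 4783 passed the filters on genes and mitochondrial UMIs.

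All cells were sorted for dTomato from fish aged 3 to 7 months that carried Tg[GFAP:dTomato]nns17Tg, in which the gfap promoter drives the reporter. Each group was 1 library from 7 pooled telencephalons: injured with MTZ, injured, uninjured with MTZ, and uninjured, where injured means the title 3dpl, a stab lesion at 3 days. The libraries with MTZ (metronidazole, toxic to cells that make nitroreductase) came from fish that also carried Tg[mpeg1:NTR-EYFP]w202, which puts nitroreductase in mpeg1-expressing cells, so MTZ, that transgene and the pool of fish cannot be told apart. The treatment label names a stab lesion for every library, against the titles, and the groups follow the titles. With 1 library per group no difference between conditions was tested, and the intervals given for them cover counting error only.

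Radial glia line the ventricle of the fish telencephalon, act as its neural stem cells, and carry fabp7a, a fatty acid-binding protein. Regions of the forebrain are told apart by transcription factors, among them foxg1a and the emx genes of the telencephalon. Signalling at region borders uses Wnt and BMP ligands, whose secreted inhibitors and receptors shape the range of each signal. Among the 6 genes of the rule, gdf10a encodes a secreted protein of the TGF-beta superfamily and wnt8b a Wnt ligand. The other 4 are dcn, which encodes decorin, a small proteoglycan of the extracellular matrix, nkx2.2a, a homeodomain factor that acts downstream of Hedgehog signalling in vertebrates, and foxb1a and foxd2, both forkhead factors.

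Depth differed between cells and libraries. The 4 libraries held 2942274 to 7541363 UMIs in 741 to 1657 barcodes. Member cells had median UMI counts of 5419.5 with injury and MTZ, 4552 with injury, 3941.5 with MTZ and no injury, and 5635.5 in the uninjured library, and other fabp7a cells had medians of 2627 to 4117.5 by library. Of barcodes, 18 entries recurred in a second library, and none of these was a member cell. Scrublet called 2 member cells and 46 of all fabp7a cells doublets, which were kept in the main results.

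The 6 genes of the rule chose the cells, so their levels are a description. Decorin was the most widespread, with UMIs in 140 of 174 member cells. Its summed level was 882 CPM (counts scaled to a fixed total of UMIs of the cells summed, as CPM) with injury and MTZ, 915 CPM with injury, 945 CPM with MTZ and no injury, and 983 CPM in uninjured member cells. Its levels were thus much alike in the member cells of the 4 libraries. Among the other 5 genes, foxd2 had UMIs in 99 member cells, gdf10a in 84, nkx2.2a in 67, foxb1a in 57 and wnt8b in 47. The most variable were gdf10a, with 118 CPM in member cells with injury and MTZ and 273 to 348 CPM in those of the other 3 libraries, and foxb1a. Member cells of both injured libraries had less foxb1a, 55.1 CPM with MTZ and 69.5 CPM without, than those of the uninjured libraries, with 181 CPM with MTZ and 134 CPM without. These sums rested on few cells with a foxb1a UMI, 11 of 42 members with injury and MTZ and 3 of 18 with injury. They numbered 30 of 76 with MTZ and no injury and 13 of 38 in the uninjured library. As foxb1a helped choose the cells, the contrast is not evidence of a change with injury. The wnt8b sums ranged from 145 to 209 CPM, the nkx2.2a sums from 92.7 to 148 CPM and the foxd2 sums from 206 to 277 CPM in member cells.

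In the other fabp7a cells, dcn reached 7.21 to 15.4 CPM and no other gene of the rule passed 6.01 CPM in a library. Just inside the rule lay 72 cells with UMIs of exactly 2 of the genes, and 102 had 3 or more. Just outside lay 137 cells with UMIs of 1 gene, which was dcn in 90 of them, while 3882 cells had none. As a gauge of free RNA, 0 of 184 cells with neuronal markers met the 2-gene criterion, which allows a share of up to 1.63%. Likewise 0 of 75 cells with microglial markers met it, which allows up to 4.0%. Median depths were 3416.5 UMIs in the neuronal and 3020 UMIs in the microglial cells, against 3457 UMIs in all fabp7a cells.

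Each gene of the rule was also found far more often in cells picked by the other 5 genes alone, as a description of how the genes kept company. The 6 genes were chosen with earlier results of these same data known. That they occurred together, with or without thinning, is thus no independent support for a distinct group of cells. Of 149 cells with UMIs of at least 2 of the other 5 genes, 39.6% (31.7 to 47.9) had gdf10a, against 0.816% (0.562 to 1.14) of the remaining 4044. Decorin was found in 72.8% of 125 such cells, against 3.42% of the remaining cells, and foxd2 in 50.3% of 151, against 0.891%. For nkx2.2a the shares were 29.6% of 152 cells, against 0.668%, for foxb1a 27.8% of 162, against 0.670%, and for wnt8b 21.1% of 161, against 0.471%. When each cell was thinned to 2000 UMIs, so that depth was equal, the shares in picked cells fell to between 10.6% for wnt8b and 60.3% for dcn, against 0.65% to 3.67% in the remaining cells. The thinned shares in picked cells were thus lower, and still above those of the remaining cells for all 6 genes.

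**Figure D1:**
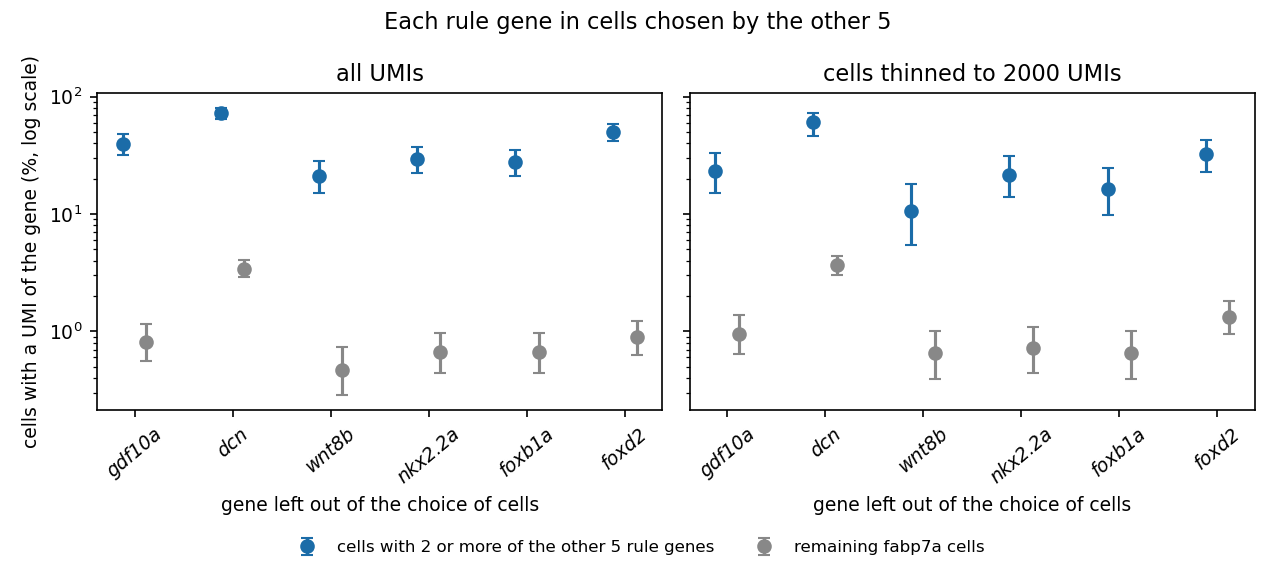
Share of cells with a UMI of each rule gene (log scale) in cells that had UMIs of at least 2 of the other 5 rule genes (blue) and in the remaining fabp7a cells (grey), with 95% exact binomial intervals, for all UMIs (left) and after thinning to 2000 UMIs (right). The picked cells lie between 10.6% and 72.8% in both panels, and the remaining cells at or below 3.67%.

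The same cells also stood together in a clustering that did not use the 6 genes. The members were chosen with earlier results of these same data known, so this is a description and not independent support. Of the 174 member cells, 127 (73.0%) fell in 1 of 19 clusters, which held 162 cells in all. The 35 other cells of that cluster included 21 with a UMI of 1 rule gene. A second cluster of 32 cells held 16 members and was led by fabp7b, ptgs2a, lmx1bb and barhl2. Another cluster of 75 cells held 14 members and was led by genes of motile cilia such as tppp3, capsla and spata18. The remaining 17 member cells were spread over 9 clusters. Among the 15 nearest neighbours of a member cell, a median of 73.3% were members, against a median of 0 for other fabp7a cells, and 8 members had no member neighbour.

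Markers of radial glia reached levels in member cells near those in other fabp7a cells. All 13 genes of the radial glia list were tested between member and other cells, 2 were lower, 11 were not called and none was higher, but 2 were higher without TMM scaling of the library sizes and 1 with DESeq2, after thinning, or with the cilia-led cluster left out. The growth factor gene ptn missed the threshold (adjusted p = 0.0542) at 3142 to 3938 CPM in members, against 1730 to 2746 CPM in other cells. Their summed level was 36090 to 45740 CPM in member cells of the 4 libraries, within the 35900 to 57270 CPM of the other cells. The 2 called genes were the glutamine synthetase gene glula, at 7142 ± 721 CPM in members, against 14390 ± 3295 CPM in other cells (SD, n = 4 libraries each), and the water channel gene aqp1a.1, at 81.3 ± 9.10 CPM, against 503 ± 196 CPM. The glula difference was a log2 fold change of −1.15 ± 0.22 (SE, adjusted p = 0.000816) and that of aqp1a.1 −2.76 ± 0.24 (adjusted p = 3.33e-08). Fibroblast markers were also checked because of dcn. The collagen genes col1a1a and col1a1b, lum and postnb had 0 UMIs in member cells, while other cells had 11, 10, 0 and 1 UMIs of them. Members held 892471 UMIs in all, against 15860367 in other cells. A count of 0 in members thus says little, here and for the endothelial and microglial genes that follow. The fibroblast genes col1a2 and fn1a had UMIs in members but were not among the genes tested. Of the 3 tested fibroblast genes pdgfra and cxcl12a were lower in members, the call of pdgfra being lost without the uninjured library (adjusted p = 0.0513), and col5a1 was not called (44.1 CPM in members, against 37.1 CPM, adjusted p = 0.918). Of the endothelial markers, kdrl, pecam1, cdh5, fli1a and tie1 had 0 UMIs in members, and cdh5 also had 0 in other cells. The endothelial list summed to 0 to 7.35 CPM in members, against 8.51 to 29.4 CPM in other cells. Summed microglial markers reached at most 61.3 CPM in member cells, with csf1ra, c1qa and c1qb at 0, against 4.0 to 132 CPM in other cells. Neuronal markers summed to 25.8 to 360 CPM in member cells, against 41.4 to 91.5 CPM in other cells. A single cell held 89.8% of the neuronal UMIs of the members with injury and MTZ.

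Genes outside the rule were tested between member cells and other fabp7a cells with edgeR, on UMIs summed per library, so that each library gave 1 sum of either kind. The filter on low counts let a gene in through either kind of cell. A gene near 0 in 1 kind was thus tested only if it was high enough in the other, which bears on counts of calls. Of 9057 genes, 387 were higher in member cells (4.27% of those tested) and 416 were lower (4.59%), 803 in all (8.87%), at a Benjamini-Hochberg adjusted p of at most 0.05. Over all genes of the fit, the 4 member sums lay wholly above the 4 other sums for 592 genes and wholly below for 381, so such separation was common. The median log2 fold change over all genes was −0.07. Without TMM scaling it was 0.07, and 487 genes were then higher and 303 lower, 61.6% of calls higher in place of 48.2%. Leaving out each library in turn gave 268 to 364 higher and 285 to 393 lower genes. Fewer were called without the library term, 228 higher and 205 lower, and after thinning, 193 and 275. DESeq2 called 260 lower, and with no filter on low counts 689 were lower.

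Of the genes named as higher, those with the largest fold changes by a fixed rule, 13 are described, and they included 6 transcription factors. The homeobox gene vax1, known from the ventral forebrain and optic stalk, was the most widespread of these, with UMIs in 96 member cells. It had 290 CPM in member cells with injury and MTZ, 324 CPM with injury, 251 CPM with MTZ and no injury and 438 CPM in uninjured members, against 5.02 to 19.9 CPM in other cells. Every member sum exceeded every other sum, as was so for 592 of the 9064 genes of the fit. The log2 fold change of vax1 was 4.94 ± 0.27 (SE, adjusted p = 1.55e-11). The oligodendrocyte lineage factor olig2 had UMIs in 62 member cells. Its sums were 152 to 231 CPM in members, against 6.95 to 12.7 CPM in other cells (log2 fold change 4.08 ± 0.24, adjusted p = 7.95e-11). Other oligodendrocyte precursor markers were too sparse to test, apart from pdgfra. In members, cspg4 and gpr17 had 0 UMIs, sox10 had 3 and olig1 had 1, against 0, 1, 21 and 17 UMIs in other cells. The forkhead gene foxp4 reached 181 to 533 CPM in members, against 11.0 to 14.8 CPM (4.26 ± 0.21, adjusted p = 1.55e-12), and foxd1 34.8 to 47.8 CPM, against 0.227 to 2.80 CPM (5.15 ± 0.54, adjusted p = 5.41e-07; 5.86 without the uninjured library, 4.57 without the injured library with MTZ and 3.56 where members needed 3 rule genes). The homeobox factor barhl2 had UMIs in 14 member cells only, with a log2 fold change of 5.62 ± 0.63 (adjusted p = 1.61e-06) that was 4.87 without the injured library with MTZ and 6.44 without the uninjured library with MTZ. The paralogue nkx2.2b had UMIs in 15 member cells, with 173 CPM in members with injury and MTZ, 23.2 CPM with injury, 19.3 CPM with MTZ and no injury and 93.9 CPM in uninjured members, against 0.868 to 4.81 CPM in other cells. Its log2 fold change of 5.21 ± 0.51 (adjusted p = 2.01e-07) was 3.99 without the injured library with MTZ, 5.82 without the uninjured library, and 2.2 where members needed 3 rule genes.

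The enolase-related gene eno4 had 217 CPM in member cells with injury and MTZ, 313 CPM with injury, 287 CPM with MTZ and no injury and 434 CPM in uninjured members, against 3.13 to 6.41 CPM in other cells. UMIs of it were found in 103 of 174 member cells and in 48 of 4019 other cells. The log2 fold change was 5.86 ± 0.22 (SE, adjusted p = 2.9e-14). Enzymes of lipid and retinoid handling were among the rest: scdb, a stearoyl-CoA desaturase, at 51.4 to 151 CPM in members, against 1.81 to 3.60 CPM, and lratb.1, of the family that esterifies retinol, at 36.7 to 116 CPM, against 0.521 to 5.61 CPM. The tolloid-like protease gene bmp1b had 34.8 to 125 CPM in members, against 3.14 to 7.61 CPM in other cells. Its relatives cleave extracellular BMP inhibitors and procollagens. Log2 fold changes were 4.77 ± 0.37 for scdb, 4.64 ± 0.40 for lratb.1 and 4.25 ± 0.34 for bmp1b (adjusted p = 6.22e-09, 2.59e-08 and 7.21e-09). Where members needed 3 rule genes, 12 of the 13 genes could be tested, and their log2 fold changes ran from 2.2 for nkx2.2b to 5.20 for zgc:64022. Against other cells with no rule gene at all those of the 13 ran from 4.47 to 6.95. The list closed with CU929418.2 and zgc:64022, for which no role is given here, and tppp3. The tubulin-binding gene tppp3 had UMIs in 17 member cells, 1 of which held 27.1% of them, and it was not among the genes tested once the cilia-led cluster was left out.

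The 10 genes named as lower had 0 UMIs in member cells. They were mstnb, elfn1b, si:ch73-335m24.2, sp8b, abcb5, arrb1, asic4a, pfkfb1, adamts5 and bdnf. The largest count in other cells was that of mstnb, a myostatin gene of the TGF-beta superfamily, at 50.1 to 118 CPM, which put members at least 23.5-fold lower against a floor of 3 counts over all member cells. The leucine-rich repeat gene elfn1b was at least 16.4-fold lower (41.2 to 80.0 CPM in other cells), and the neurotrophin gene bdnf at least 3.26-fold lower (8.47 to 14.9 CPM in other cells). Adjusted p-values of these 10 ran from 1.9e-07 for mstnb to 0.0119 for bdnf. The calls of the last 2 were lost when 1 library was left out, adamts5 without the uninjured library with MTZ (adjusted p = 0.0546) and bdnf without the injured library with MTZ (adjusted p = 0.0609).

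**Figure D2:**
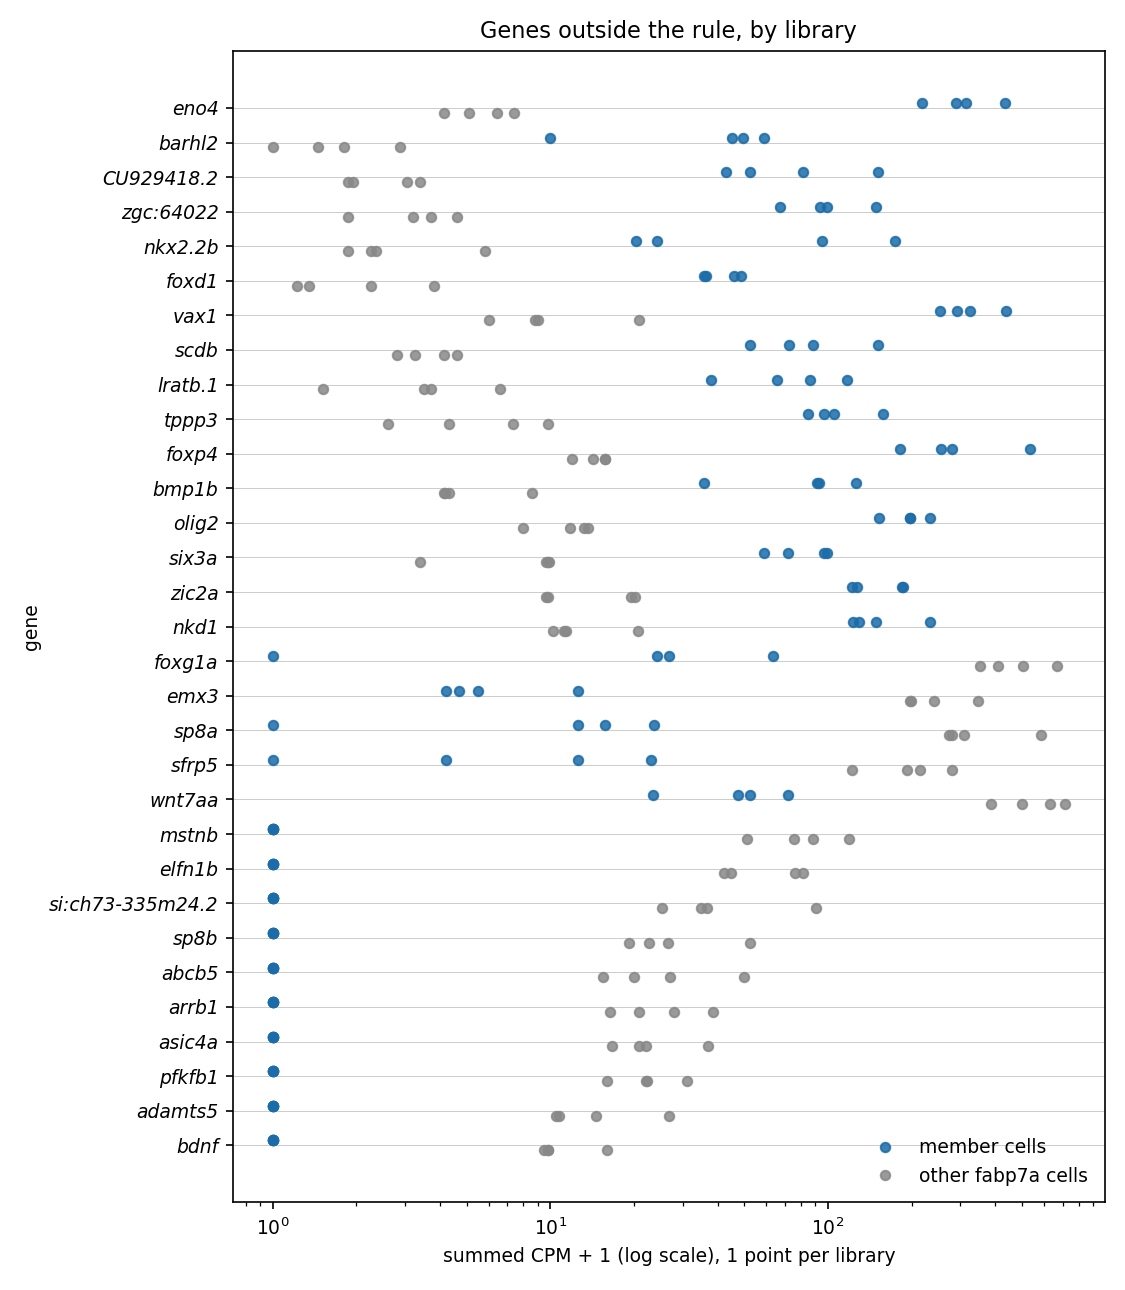
Summed CPM + 1 (log scale) of genes outside the rule, 1 point per library, in member cells (blue) and other fabp7a cells (grey). From top to bottom are 13 genes named as higher, 8 genes of the lists on regional factors and Wnt signalling, and the 10 genes named as lower, which have 0 CPM in member cells of every library. The member and other points of a gene share no range, which held for 592 higher and 381 lower genes of the 9064 in the fit.

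Regional transcription factors were read from lists for the pallium, subpallium, diencephalon and dorsal midline. Of 10 tested pallial factors, 4 were lower in members (emx3, foxg1a, emx2 and lhx2b) and 2 higher (nr2f2 and pax6a), with a median log2 fold change of −0.55. The forkhead gene foxg1a, which marks the telencephalon, had 62.5 CPM in member cells with injury and MTZ, 23.2 CPM with injury, 25.8 CPM with MTZ and no injury and 0 CPM in uninjured members, against 351 to 667 CPM in other cells by library. UMIs of it were found in 14 of 174 member cells, 1 of which held 37.0% of them, and in 2378 of 4019 other cells. Its log2 fold change was −4.19 ± 0.38 (adjusted p = 6.88e-08), and −5.17 without the injured library with MTZ. The homeobox gene emx3 had 3.22 to 11.6 CPM in members, against 196 to 347 CPM in other cells (−5.88 ± 0.37, adjusted p = 1.95e-10). Its relative emx2 had 3.67 to 22.3 CPM in members, against 75.6 to 140 CPM (−3.72 ± 0.36, adjusted p = 1.82e-07; −4.43 without the uninjured library). Where members needed 3 rule genes the log2 fold changes were −4.84 for foxg1a, −7.15 for emx3 and −3.0 for emx2. Thus the sums of foxg1a, emx3 and emx2 did not overlap between member and other cells, as was so for 381 genes lower in members of the 9064 in the fit. The dissected tissue is labelled telencephalon. Where the members lay, and whether all of them lay within the telencephalon, was not measured.

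Of 5 tested subpallial factors, vax1 and six3a were higher and sp8a and ascl1a lower. The homeobox gene six3a had 57.9 to 98.3 CPM in members, against 2.4 to 8.85 CPM in other cells (log2 fold change 3.38 ± 0.36, adjusted p = 6.87e-07). The zinc-finger gene sp8a had 0 to 22.6 CPM in members, against 272 to 585 CPM, at −4.82 ± 0.38 (adjusted p = 7.91e-09; −5.65 without the uninjured library with MTZ and −4.12 without the uninjured library). The proneural factor ascl1a was at 3.22 to 23.2 CPM in members, against 32.0 to 63.2 CPM (−3.26 ± 0.45, adjusted p = 2.84e-05). The other tested subpallial factor, gsx2, was not called (306 CPM on average in members, against 201 CPM in other cells).

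Of 42 listed factors of the diencephalon or hypothalamus, 10 were tested, 5 were higher (barhl2, nkx2.2b, foxd1, lhx5 and foxa1) and 2 lower (arxa and otx1), with a median log2 fold change of 1.54. In other cells barhl2, nkx2.2b and foxd1 reached at most 1.88, 4.81 and 2.80 CPM, so they passed the filter on low counts through their member sums. The count and the median thus describe only the genes that the filter let in. After thinning to 2000 UMIs only 4 could be tested, with 0 higher and 1 lower, and barhl2, nkx2.2b and foxd1 were not among those tested. In member cells 17 of the 42 had 0 UMIs, among them rx3, otpa, otpb, sim1a and nkx2.4b, known from the hypothalamus. In other cells 7 of the 42 had 0 UMIs, out of 15860367 UMIs in all, against 892471 in members. The summed level of the list was 440 to 733 CPM in members, against 285 to 506 CPM in other cells. Of 9 tested dorsal midline and Zic factors, 8 were higher (among them lmx1bb, zic1, zic2a, zic2b, zic4, zic5 and foxj1a) and tfap2a was lower, a median of 1.65. With the cilia-led cluster left out 7 of the 9 were higher, and foxj1a also belongs to the list of cilia genes. In other cells lmx1bb and zic2b reached at most 5.61 and 5.73 CPM, so they too passed the filter through their member sums. The zinc-finger gene zic2a had UMIs in 58 member cells and 121 to 185 CPM, against 8.68 to 19.2 CPM in other cells (3.31 ± 0.24, adjusted p = 2.07e-09). The LIM homeobox factor lmx1bb was at 7.35 to 51.6 CPM in members, against 0.679 to 5.61 CPM, in 11 member cells only (3.40 ± 0.52, adjusted p = 8.1e-05). The call of zic2b was lost without the uninjured library (adjusted p = 0.0965; log2 fold change 1.98, against 2.88 with all 4) and without the injured library (adjusted p = 0.051).

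All 4 tested Wnt ligands were lower in member cells, although wnt8b, a ligand, belongs to the rule. The strongest in other cells, wnt7aa, had 51.4 CPM in members with injury and MTZ, 46.3 CPM with injury, 70.9 CPM with MTZ and no injury and 22.3 CPM in uninjured members, against 384 to 713 CPM in other cells. Its log2 fold change was −3.68 ± 0.27 (adjusted p = 2.37e-09). For wnt16 the sums were 0 to 16.1 CPM in members, against 51.4 to 74.0 CPM in other cells (adjusted p = 3.29e-05), and for wnt4 0 to 12.9 CPM, against 25.6 to 43.6 CPM (adjusted p = 0.00117). The log2 fold change of wnt16 was −3.06, and −4.06 without the uninjured library with MTZ, and that of wnt4 was −2.47, and −3.11 without the same library. The smallest difference, in wnt7bb, overlapped between groups, and its call was lost without the uninjured library with MTZ (adjusted p = 0.165).

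Of 21 tested Wnt receptors, modulators and targets, 2 were higher (fzd5 and nkd1) and 4 lower (sfrp5, sfrp1a, apcdd1l and fzd7a), with a median log2 fold change of −0.09. The receptor gene fzd5 had 19 UMIs in 16 member cells and 3 UMIs in 3 of the 4019 other cells, a ratio of 113 per UMI (counting interval 33.1 to 594; adjusted p = 4.57e-06). Its fitted log2 fold change of 6.14 was 6.99 without the injured library with MTZ, and it could not be tested without the uninjured library. The intracellular inhibitor and Wnt target nkd1 had 129 CPM in members with injury and MTZ, 232 CPM with injury, 123 CPM with MTZ and no injury and 148 CPM in uninjured members, against 9.20 to 19.6 CPM in other cells (3.49 ± 0.24, adjusted p = 1.06e-09). The secreted inhibitors sfrp5 and sfrp1a were low in members, at 0 to 22.0 CPM and 0 to 34.8 CPM, against 121 to 280 CPM and 190 to 239 CPM in other cells. The log2 fold change of sfrp5 was −4.68 ± 0.40 (adjusted p = 2.59e-08; −6.09 without the injured library with MTZ) and that of sfrp1a −4.08 ± 0.36 (adjusted p = 4.35e-08). The other 15 genes were not called.

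For BMP and TGF-beta signalling, 12 of the 20 listed ligands, among them bmp2b, bmp7a and gdf10b, had 0 UMIs in members. In other cells 5 of the 20, gdf10b among them, had 0 UMIs. A count of 0 says less in members, which held 892471 UMIs in all, against 15860367 in other cells. Of the 3 ligands tested 1 was lower (gdf11). Of 23 tested receptors, modulators and targets, 3 were higher and nog3 was lower, with a median log2 fold change of −0.08. The noggin gene nog3 had 1 UMI in all member cells, against 1166 UMIs at 52.5 to 118 CPM in other cells, a ratio of 0.0152 (counting interval 0.000386 to 0.0851; adjusted p = 1.82e-07). Its paralogue nog2 went the other way, at 551 to 849 CPM in members, against 272 to 475 CPM (0.68 ± 0.18, adjusted p = 0.0186). That call was lost without the injured library with MTZ (adjusted p = 0.119) or the uninjured library (adjusted p = 0.125). The BMP inhibitor gene chrd and the BMP effector gene smad9 were also higher, 1.56 ± 0.35 and 1.64 ± 0.36, with calls lost without the uninjured library with MTZ (adjusted p = 0.0906 and 0.109).

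Of 25 tested Hedgehog, FGF and retinoid genes, 2 were higher (rdh10a and fgfr4) and 9 lower, with a median log2 fold change of −0.84. The Hedgehog co-receptor gene cdon had 11.6 to 32.2 CPM in members, against 268 to 475 CPM in other cells (−3.91 ± 0.30, adjusted p = 3.79e-09). Its partner boc averaged 135 CPM in members, against 478 CPM (−2.19 ± 0.24, adjusted p = 1.21e-06), and the effector gli2a was lower too (adjusted p = 0.000915). The retinol dehydrogenase gene rdh10a, which acts in retinoic acid synthesis, was at 44.7 to 139 CPM in members, against 1.88 to 12.7 CPM (3.49 ± 0.36, adjusted p = 4.95e-07). The retinoic acid-degrading cyp26c1 was at 0 to 7.35 CPM, against 38.7 to 98.5 CPM (−3.69 ± 0.43, adjusted p = 2.35e-06), and cyp26b1 had 2 UMIs in all members (adjusted p = 0.00117).

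Of 14 tested proteoglycan and matrix genes, spock3 and smoc2 were higher and hapln1a, tnc and bgnb lower, a median of −0.22. The testican gene spock3, a proteoglycan of the SPARC family, had 23.2 to 47.8 CPM in members, against 3.85 to 6.41 CPM in other cells (2.78 ± 0.39, adjusted p = 2.84e-05). Decorin's relative bgnb, biglycan, averaged 7.38 CPM in members, against 28.6 CPM. Its log2 fold change of −2.23 was −1.35 without the uninjured library with MTZ, where its call was lost (adjusted p = 0.332), and −3.56 without the injured library with MTZ. Other small leucine-rich proteoglycans of the list were all but undetected in both, with 0 UMIs of bgna, fmoda and omd in member and other cells, and 0 UMIs of ogna and prelp in members, against 6 and 1 in other cells.

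In the Notch list, 3 of 17 tested genes were higher (her4.3, her9 and her4.4) and 5 lower (hey2, notch2, dla, hey1 and jag1b), with a median log2 fold change of −0.35. The hairy-related Notch target her4.3 had 132 CPM in members with injury and MTZ, 903 CPM with injury, 735 CPM with MTZ and no injury and 1296 CPM in uninjured members, against 78.1 CPM with injury and MTZ, 251 CPM with injury, 189 CPM with MTZ and no injury and 404 CPM uninjured in other cells. It was higher in members of each library while the ranges over libraries overlapped (1.44 ± 0.21, adjusted p = 4.6e-05; without the library term, adjusted p = 0.144). The ligand gene dla was lower in members, 67.0 to 151 CPM, against 199 to 372 CPM (−1.64 ± 0.24, adjusted p = 6.2e-05). Paralogues of the her4 family share much sequence, so their split between genes is uncertain. Of 8 cilia genes, 5 were higher (tekt1, spag6, enkur, cfap126 and foxj1a), and 0 of the 6 that could be tested were called once the cilia-led cluster was left out. The log2 fold changes were then 1.14 for cfap126 (1.51 with it; adjusted p = 0.0501), 1.41 for spag6 (2.2 with it; adjusted p = 0.0934) and 0.60 for enkur (1.86 with it; adjusted p = 0.447). A single cell held 65.5% of the cilia-list UMIs of the uninjured members.

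The member cells were not all alike, and nkx2.2a mostly kept apart from gdf10a and wnt8b. The split was chosen after the values were seen and is a description. Members with a UMI of nkx2.2a had a median of 1 UMI of it, and those with gdf10a or wnt8b a median of 2. A cell without a UMI of a gene may thus still express it. The choice of members by at least 2 of the 6 genes also bears on how often these 3 occur together, and its part was not tested. Of 174 members, 81 had gdf10a or wnt8b and no nkx2.2a, 51 had nkx2.2a and neither of the others, 16 had both kinds and 26 had none of the 3. Decorin was found in 62 of the 81 and 46 of the 51 cells, and foxd2 in 43 and 28. The rule itself asked each cell of the nkx2.2a kind for a UMI of dcn, foxb1a or foxd2. It asked the same of the other kind unless a cell had both gdf10a and wnt8b. These shares were thus partly set by the choice of cells. Both kinds were found in all 4 libraries, 9 to 35 cells of the gdf10a or wnt8b kind and 4 to 17 cells of the nkx2.2a kind, with fewest of either in the injured library. Most of both lay in the same main cluster, 57 of 81 and 41 of 51.

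Of 3227 genes with at least 30 UMIs in members, 32 (0.992%) were at least 4-fold higher in the gdf10a or wnt8b kind and 20 (0.62%) in the nkx2.2a kind. Of these, 22 and 13 kept that direction in all 4 libraries. The share over all 3227 genes is not given, and a 4-fold gap in the sums already favours a shared direction. In the injured library the nkx2.2a kind had 4 cells, and 0 CPM there, as for mfap5, smad9 and scdb, counted as lower. The first kind carried mfap5, a microfibril protein gene, in 46 of 81 cells at 482 CPM, against 1 of 51 cells at 8.09 CPM in the nkx2.2a kind (ratio 59.6, counting interval 16.3 to 495). It also carried rdh10a in 23 of 81 cells, against 0 of 51 cells, at least 8.3-fold higher. The Wnt target nkd1 was at 232 CPM, against 24.3 CPM (9.53-fold, counting interval 4.24 to 26.55). The BMP effector smad9 was at 72.9 CPM, against 8.09 CPM (9.0-fold, 2.31 to 77.35), and scdb at 135 CPM, against 4.05 CPM (33.4-fold, 5.77 to 1338). In the nkx2.2a kind these levels rested on 6 UMIs of nkd1, 2 of smad9 and 1 of scdb. The fatty acid-binding protein gene fabp7b had UMIs in 9 cells of the first kind and in none of the second.

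The nkx2.2a kind carried gsx2, a homeobox factor of the lateral ganglionic eminence in mammals. It had UMIs in 4 of 81 cells at 17.2 CPM in the gdf10a or wnt8b kind, against 33 of 51 cells at 919 CPM in the nkx2.2a kind and 194 CPM in other fabp7a cells. In the same way olig2 was at 27.9 CPM in 9 of 81 cells, against 478 CPM in 35 of 51 cells, and lratb.1 at 8.57 CPM, against 182 CPM. The heparan sulfatase gene sulf2a was at 36.4 CPM in the gdf10a or wnt8b kind, against 215 CPM in the nkx2.2a kind. The factor gene pax6b was at 21.4 CPM, against 109 CPM, and at 21.3 CPM in other fabp7a cells. The thyroid hormone deiodinase gene dio2 was at 60.01 CPM, against 328 CPM, and at 233 CPM in other fabp7a cells. It was thus not particular to the nkx2.2a kind, and was low in the gdf10a or wnt8b kind. Both kinds thus held genes of retinoid handling, rdh10a in the first and lratb.1 in the second. Some large differences rested on few cells, such as six6a with UMIs in 5 cells and penkb in 2.

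**Figure D3:**
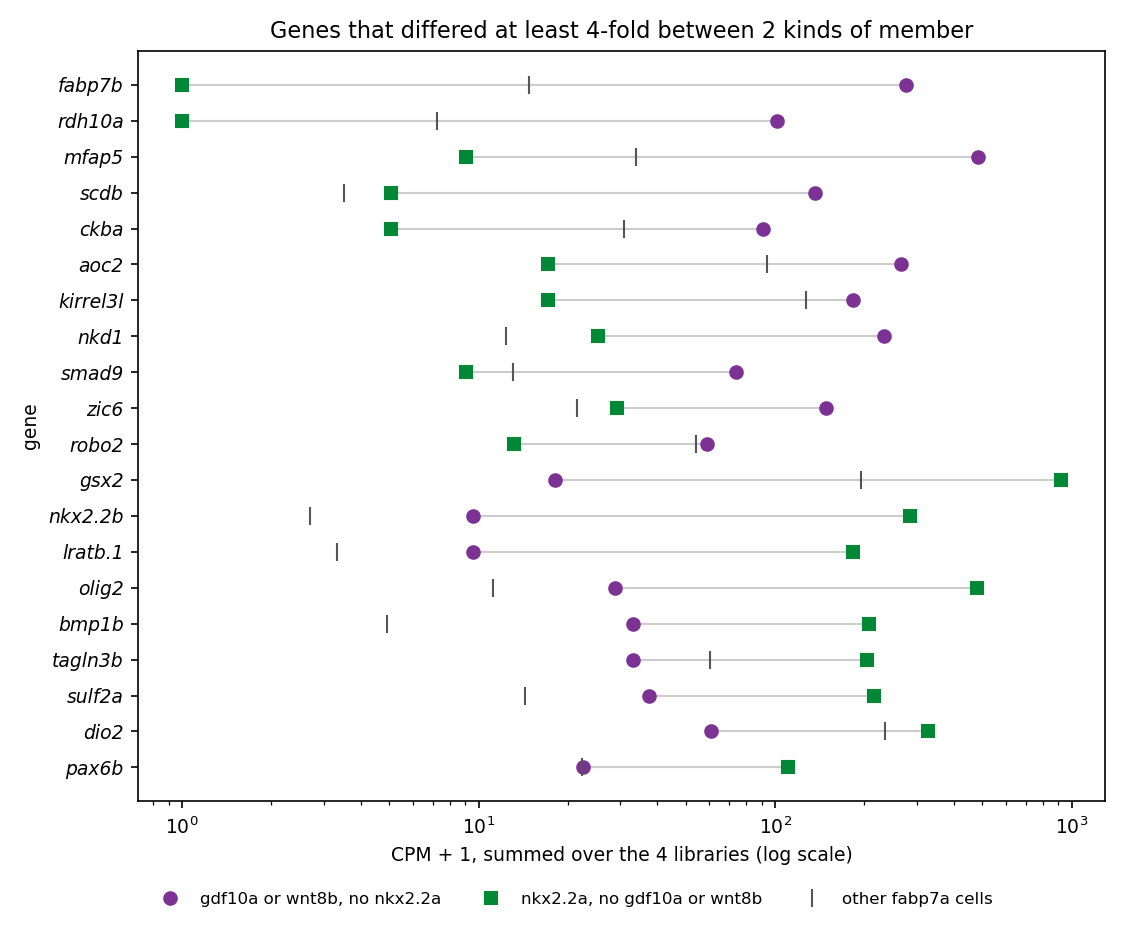
CPM + 1 (log scale), summed over the 4 libraries, of genes at least 4-fold apart between member cells with gdf10a or wnt8b but no nkx2.2a (purple circles, 81 cells) and those with nkx2.2a but neither (green squares, 51 cells), with other fabp7a cells as bars; genes shown kept their direction in all 4 libraries and had no single cell with 25% or more of their UMIs. The upper 11 genes are higher in the first kind and the lower 9, from gsx2 to pax6b, in the second.

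The share of members among fabp7a cells was lower in both injured libraries. It was 1.88% with injury (18 of 960, 95% exact binomial interval 1.12 to 2.95), against 5.56% without (38 of 683, 3.97 to 7.56). With MTZ it was 3.24% (42 of 1296, 2.35 to 4.36) with injury, against 6.06% (76 of 1254, 4.80 to 7.53) without injury. The ratios were 0.337 without MTZ and 0.535 with it. The intervals of injured and uninjured libraries did not overlap in either pair. They cover counting error among the cells of 1 library each, so this is no test between conditions. After thinning to 2000 UMIs, the shares were 1.35% with injury, against 5.40% in the uninjured library, and 2.22% with injury and MTZ, against 7.49% with MTZ and no injury. Thinning left out 260 shallower cells with injury and MTZ, 217 with injury, 506 with MTZ and no injury and 183 in the uninjured library. In the cells kept, the shares before thinning were 2.29% with injury, against 7.4% uninjured, and 3.57% with injury and MTZ, against 9.23% with MTZ and no injury. The main cluster, built without the 6 genes, held 1.98% of fabp7a cells with injury, against 6.15% in the uninjured library, and 2.62% with injury and MTZ, against 5.34% with MTZ and no injury. A share can fall because members are fewer, because other fabp7a cells are more numerous, or because fewer cells pass the rule, and these cannot be told apart in sorted, pooled cells.

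**Figure D4:**
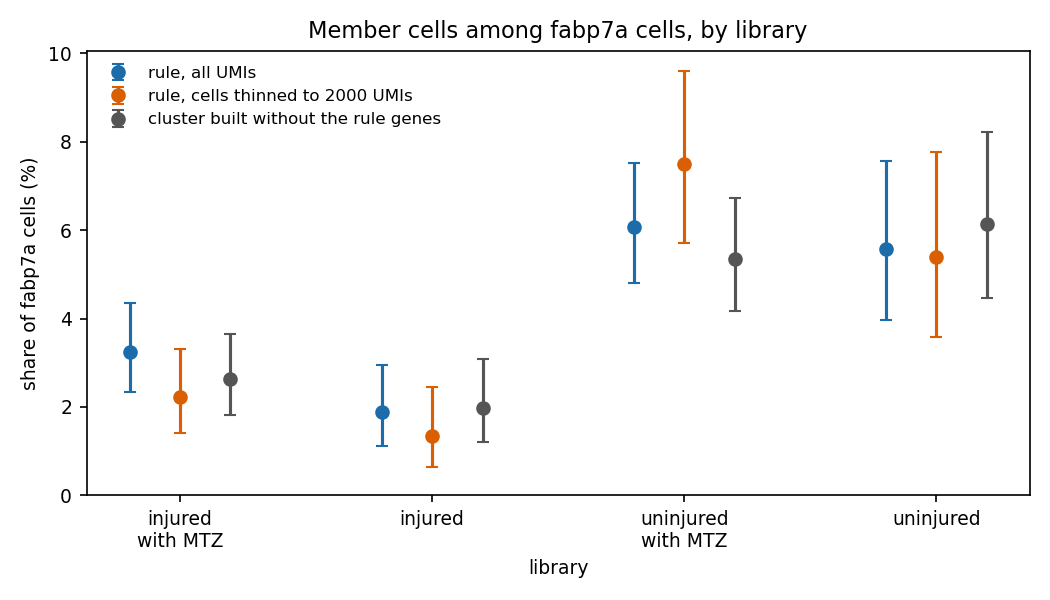
Share of fabp7a cells (%) in each library that met the rule with all UMIs (blue), met it after thinning to 2000 UMIs (orange), or fell in the main cluster built without the rule genes (grey), with 95% exact binomial intervals. All 3 shares lie between 1.35% and 3.24% in the 2 injured libraries, and between 5.34% and 7.49% in the 2 uninjured ones.

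Gene lists were then compared between injured and uninjured libraries within member cells, as ratios of summed CPM with counting intervals. Across single genes with enough UMIs, 6.53% were at least 2-fold higher and 7.55% at least 2-fold lower in members with injury than in uninjured members (2358 genes), and 9.1% and 5.02% with MTZ (3724 genes). In other fabp7a cells the shares were 7.09% higher and 7.12% lower (11679 genes), and 6.21% and 6.96% with MTZ (12056 genes). Interferon and antigen presentation genes summed to 1703 CPM in injured members, against 849 CPM in uninjured members, a ratio of 2.01 (1.61 to 2.50). Other fabp7a cells of the same libraries had 5085 CPM, against 1055 CPM, a ratio of 4.82 (4.63 to 5.02). With MTZ the ratios were 2.12 (1.81 to 2.47) in members and 2.80 (2.69 to 2.92) in other cells. In members, b2m, the light chain of class I antigen-presenting molecules, gave 43.9% of the list's UMIs without MTZ and 41.0% with it. Its ratio was alike in members and other cells, 2.03 and 2.07 without MTZ and 2.06 and 2.09 with it. Only 4 of 22 genes had enough UMIs in members without MTZ and 8 with it, against 21 and 20 in other cells. These went both ways: irf1b without MTZ had ratios of 8.10 in members and 4.07 in other cells, and stat2 with MTZ 1.39 and 3.46. The interferon-induced gene rsad2 had 80.8 CPM in members with injury and MTZ and 11.6 CPM with injury, against 9.67 CPM with MTZ and no injury and 4.47 CPM in uninjured members. The other cells of the same libraries had 349 CPM and 1075 CPM with injury, against 64.9 CPM and 70.5 CPM without. In the test of all 4 libraries 5 of 11 interferon genes were lower in members (stat1b, rsad2, isg15, irf7 and stat2) and none higher, but 3 were lower without TMM and 2 with DESeq2. The call of irf7 was lost without the injured library (adjusted p = 0.381) or the injured library with MTZ (adjusted p = 0.114). That of isg15 was lost with DESeq2 (adjusted p = 0.174), and its log2 fold change of −2.12 was −1.16 without the injured library and −3.76 without the injured library with MTZ. Member and other sums of rsad2, isg15, stat1b and irf7 overlapped between libraries. One cell held 63.0% of the member UMIs of rsad2.

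Cholesterol synthesis genes summed to 3023 CPM in injured members, against 3459 CPM in uninjured members, a ratio of 0.874 (0.757 to 1.01), with 0 of 12 genes at least 2-fold apart. Other fabp7a cells had 782 CPM, against 2814 CPM, a ratio of 0.278 (0.267 to 0.290), with 20 of 21 genes at least 2-fold lower. One injured member cell held 46.7% of that library's UMIs of the list, and without the highest cell of each library the ratio in members was 0.564 (0.466 to 0.678). Where members needed 3 rule genes, the log2 ratio in members was −1.59, in place of −0.19. With MTZ the ratio was 0.643 (0.575 to 0.718) in members and 0.337 (0.327 to 0.347) in other cells. In members 5 of 15 genes were at least 2-fold lower (among them hmgcs1, fdps, nsdhl and sc5d). The gene dhcr7 was at least 2-fold higher (ratio 2.07, 0.947 to 4.79, against 0.660 in other cells). In other cells 19 of 21 genes were at least 2-fold lower and 0 higher.

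The reactive glia genes, which include annexins and galectins, summed to 3904 CPM in injured members, against 4867 CPM in uninjured members (ratio 0.802, 0.708 to 0.907). Other cells had 5055 CPM, against 2364 CPM (2.14, 2.08 to 2.2). The genes of the list did not all follow its sum in members. Of 7 tested, anxa2a was at least 2-fold higher with injury (ratio 3.46, 1.34 to 9.29, against 5.59 in other cells) and none was at least 2-fold lower. The galectin gene lgals2a was at 0.549 (0.417 to 0.713) in members. With MTZ the ratio of the list was 1.15 (1.07 to 1.22) in members and 1.55 (1.51 to 1.59) in other cells. One cell held 25.9% of the list's UMIs in members with injury and MTZ, and without the highest cell of each library that ratio was 1.01 (0.938 to 1.09). Where members needed 3 rule genes it turned to a log2 ratio of −0.18. In the uninjured library the list's sum was 4867 CPM in members, against 2364 CPM in other cells. One gene of the list, s100a10b, had 1341 to 1873 CPM in members of the 4 libraries, against 420 to 735 CPM in other cells (log2 fold change 1.30 ± 0.23, adjusted p = 0.00041). The summed Notch list was lower with injury in both kinds of cell. Without MTZ the ratios were 0.731 (0.684 to 0.780) in members and 0.556 (0.549 to 0.564) in other cells. With MTZ they were 0.421 (0.401 to 0.442) in members and 0.589 (0.581 to 0.596) in other cells. Single genes differed: without MTZ, 1 of 11 tested genes was at least 2-fold higher in injured members (dla) and 1 lower (her4.4). The receptor gene notch3 had a ratio of 1.53 (1.135 to 2.05) in members without MTZ, against 0.751 in other cells. With MTZ, her4.1, her4.2, her4.3, her4.4 and hey1 were each at least 2-fold lower in injured members. Proliferation genes were sparse in members. They gave 17 UMIs (197 CPM) with injury, against 29 UMIs (130 CPM) in the uninjured library, a ratio of CPM of 1.52 (0.783 to 2.86). With MTZ they gave 174 UMIs (639 CPM) with injury, against 92 UMIs (297 CPM) without, a ratio of 2.16 (1.67 to 2.81). Other cells had ratios of 1.64 (1.52 to 1.76) without MTZ and 2.56 (2.38 to 2.75) with it. With MTZ the S-phase genes pcna, mcm2 and mcm3 had ratios of 2.235, 3.875 and 2.849 in members. In other cells these ratios were 2.758, 1.568 and 2.616. A single cell held 33.3% of the members' proliferation UMIs with injury and MTZ.

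**Figure D5:**
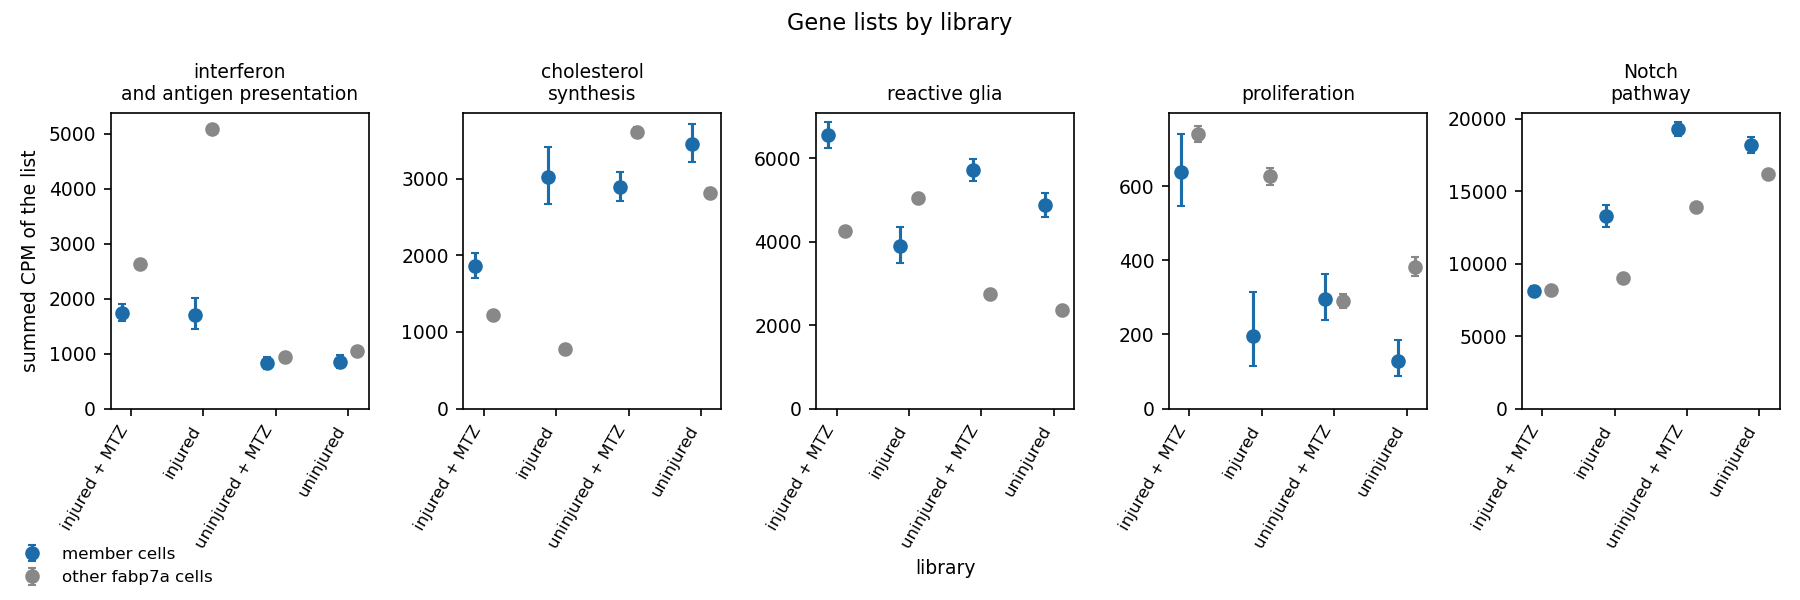
Summed CPM of 5 gene lists in member cells (blue) and other fabp7a cells (grey) of each library, with 95% exact Poisson intervals that cover counting error only. The interferon sums of members with injury, 1703 and 1745 CPM, lie below the 5085 and 2621 CPM of other cells, and the cholesterol sum of 3023 CPM in injured members lies above the 782 CPM of other cells of that library.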

How the data were processed

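Single-cell RNA was measured in 4 libraries made with the 10x 3' v3 kit. The deposited matrices hold UMI counts per gene and barcode, with no normalization, per the file headers; the authors used Cell Ranger with GRCz11, version 3.1.0 per the submitters' processing notes and 4.0.0 per the matrix headers. The annotation release is not given in the sources used here, and no coordinates or sequences are printed.

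Symbols with over 1 identifier (518) were summed, leaving 24435 of 25107 features. The members and the gene lists were chosen with earlier results of these data known. Member and other cells were summed per library and tested with edgeR 4.0.16 (quasi-likelihood, filterByExpr, TMM, library as a replicate block, since both sums of a library share its cells and fish), with p-values adjusted over 9057 genes; the genes of the rule and fabp7a stayed out of the counts. The block was thus fixed by design, and the labels number no replicates. The 4 libraries are separate pools under different conditions, so p-values measure the spread of the difference between them. DESeq2 1.42.0, other thresholds, thinning, and each library left out were alternatives. Leaving out the cilia-led cluster, or the cell with most UMIs of a list, was added after seeing the data. Calls were checked on simulated counts. Named genes were the 14 higher and 10 lower with the largest fold changes among those with the same direction in all 4 libraries and at least 40 UMIs, present in every library in the higher kind of cell and not mitochondrial, and up to 4 called genes per list; other genes are named to complete a count of 5 or fewer or were chosen after their values were seen. A few items are not reported here. Clusters were built from 2000 variable genes, 30 principal components and 15 neighbours without the 6 genes (Leiden, leidenalg 0.10.2, resolution 1; scanpy 1.11.5). Scrublet doublets were 0.8% per 1000 barcodes. Shares have 95% Clopper-Pearson intervals, CPM Poisson and ratios conditional binomial ones.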

Additional observations from a re-analysis of the deposited data

Results flagged for a closer look

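Outside the member cells, 590 cells passed the filters on genes and mitochondrial UMIs but had under 0.5% of their UMIs from fabp7a. Of these, 10 (1.70%, 95% exact binomial interval 0.816 to 3.09) also had UMIs of at least 2 of the 6 genes. A floor of 3 counts over the 590 cells would be 0.508%. The 10 cells drew attention because no comparison used them. Their fabp7a share was 0.0396% to 0.415% of UMIs and their median depth 7788 UMIs, against a median of 2784.5 UMIs for all 590. Of the 10 cells, 9 had dcn, 7 foxd2, 4 gdf10a, 3 foxb1a, 2 nkx2.2a and 0 wnt8b, and foxg1a had 1 UMI in 88991. They came from all 4 libraries, 3 with injury and MTZ, 3 with injury, 3 with MTZ and no injury and 1 uninjured.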

How the results depend on the processing

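The share of members kept its order between injured and uninjured libraries under the alternatives run. With at least 3 rule genes it was 2.01% with injury and MTZ, 0.938% with injury, 3.43% with MTZ and no injury and 3.51% uninjured. The intervals of the MTZ pair, which cover counting error only, then overlapped, at 1.315% to 2.93% with injury and 2.49% to 4.59% without. With thinning the share was 2.22% with injury and MTZ. Under a filter of 800 genes and 10% mitochondrial UMIs it was 9.01% with MTZ and no injury. Genes called higher numbered 193 after thinning and 228 with no replicate block, against 387. Genes called lower numbered 260 with DESeq2, 275 after thinning, 689 with no filter on low counts and 205 with no replicate block, against 416. With each library left out, 268 to 364 genes were higher and 285 to 393 lower. No named gene turned its direction. Of 79 named genes, the thinned sums could not test 21, and 7 of the others lost their call.

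Shares in cells picked by the other 5 genes after thinning were 23.2% (gdf10a), 60.3% (dcn), 10.6% (wnt8b), 21.7% (nkx2.2a), 16.4% (foxb1a) and 32.2% (foxd2). Picked by at least 1 other gene they were 27.7% (gdf10a), 63.4% (dcn), 21.9% (nkx2.2a), 19.3% (foxb1a) and 33.2% (foxd2). At Leiden resolution 0.5 the main cluster held 81.6% of members.

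Log2 ratios of list sums in injured over uninjured members moved as follows. Without MTZ and with at least 3 rule genes they were 0.63 for interferon (1.0 as reported), −1.59 for cholesterol (−0.19) and −0.23 for Notch (−0.45). With TMM factors they were −0.41 for cholesterol, −0.54 for reactive glia (−0.32) and −0.67 for Notch. With MTZ and at least 3 rule genes they were −0.88 for cholesterol (−0.64), 1.63 for proliferation (1.11), −0.93 for Notch (−1.25) and −0.18 for reactive glia, which turned from 0.20, and TMM gave −1.33 for Notch. Without the cell with most UMIs, cholesterol was −0.83 without MTZ, and with MTZ interferon was 0.85 and reactive glia 0.013. Apart from that cell and the smaller sets of cells, the cause was not tested. Injured members numbered 18, which limits every value of that library.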
